A study of Mus musculus with 9 samples.

Results

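The genes described here move melanosomes to the cell edge or build their cargo routes: Myo5a, Rab27a, Mlph, Rab38, Rab32, Bloc1s1, Hps1, Hps4 and Ap3d1. They were taken by symbol from the deposited gene counts, 9 of 54532 entries. The set was selected on the CPM of Myo5a and Rab27a, which stood higher with hairpin 2, so every value of these 9 genes in the contrasts of hairpin 2 with the other groups is given as a description, without a test. Of the 9 genes, 8 passed the filter on low counts, and Bloc1s1 did not.

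RNA came from tumours that grew for 16 days under the skin of C57BL/6 mice injected with B16-F10 cells, a pigmented mouse melanoma line, and was sequenced in bulk. The injected cells carried hairpin 2 against Fbxo38 (3 libraries), hairpin 1 against Fbxo38 (3 libraries) or a control hairpin (3 libraries). Fbxo38 encodes the substrate-binding subunit of a ubiquitin ligase. Whether replicates are separate mice, and what vector or clone was used, is not in the labels, and p-values therefore cover the spread among these 9 samples alone. The genotype field gives a different F-box gene number in each hairpin library, and the groups were taken from the titles. Fbxo38 itself stood at 20.96, 11.4 and 11.9 CPM with hairpin 2, at 35.1, 20.99 and 22.0 CPM in the libraries labelled hairpin 1, and at 21.7, 31.3 and 30.8 CPM in control. CPM is the count of a gene relative to the library size, with sizes scaled by the TMM method. Hairpin 2 libraries all lay below the controls for Fbxo38, as they did for 10.2% of all tested genes. Its log2 fold change was -0.92 (SE 0.29, edgeR adjusted p = 0.254). The libraries labelled hairpin 1 overlapped the controls (log2 fold change -0.10, SE 0.28; edgeR adjusted p = 0.9999), so they are called by their label.

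Melanosomes are lysosome-related organelles that mature near the nucleus and are then carried outward along microtubules. At the cell periphery, the small GTPase Rab27a on the melanosome binds melanophilin (Mlph), which binds the actin motor myosin Va (Myo5a), and this tether holds the organelle there. Loss of Myo5a, Rab27a or Mlph in mice gives the diluted coats called dilute, ashen and leaden. Upstream of this, Rab32 and Rab38 act with the complexes BLOC-1, BLOC-2, AP-3 and AP-1 to bring melanin enzymes to the organelle. BLOC-3, formed by Hps1 and Hps4, is the exchange factor that loads Rab32 and Rab38 with GTP.

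Libraries held 15322163 to 17342554 counts, and 14193 genes were tested. Hairpin 2 replicate 2 (-54.8) and replicate 1 labelled hairpin 1 (60.6) stood apart from the other 7 libraries (-21.5 to 30.7) on the leading principal component, which held 35.8% of variance. All 10 melanocyte lineage markers were detected in the tumours, and their summed level was 24170 to 34193 CPM with hairpin 2, 26916 to 33213 CPM labelled hairpin 1 and 26938 to 34648 CPM in control. The 11 leukocyte markers summed to 50.7 to 676 CPM with hairpin 2, 263 to 677 CPM labelled hairpin 1 and 266 to 593 CPM in control. The 7 fibroblast markers summed to 277 to 1421 CPM with hairpin 2, 244 to 3333 CPM labelled hairpin 1 and 167 to 406 CPM in control. For the 5 erythroid markers the sums were 421 to 21462 CPM with hairpin 2, 1033 to 1489 CPM labelled hairpin 1 and 2539 to 4967 CPM in control. Of 4 keratinocyte markers, 3 were at 0 in every library.

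Promoters were taken from RefSeq (GRCm38.p6) for 8 of the 9 genes, in windows from 250 bases before to 50 bases after a start site. The upstream 250 bases are shown for the 3 tether genes, since their transcripts are the ones compared most closely below. Capitals mark CACGTG, an E-box hexamer that is its own reverse complement and a known binding sequence of the MITF family of melanocyte transcription factors. The window of Rab27a upstream of its inner start site holds 1 CACGTG, beginning 246 bases before that site, and that of Mlph holds 1, beginning 48 bases before its start. Neither the Myo5a window nor the outer Rab27a window holds CACGTG or CATGTG on either strand. Among the other genes, the Bloc1s1 window holds 2 CACGTG and 1 CATGTG, 1 of the Hps1 windows holds 1 of each, and those of Rab32, Hps4 and Ap3d1 hold none. Of 32851 mouse promoter windows of the same length, 7.15% hold CACGTG and 14.2% hold CATGTG or its reverse complement CACATG. All shown are on the plus strand, at chr9:75070956-75071205, chr9:73044560-73044809, chr9:73063898-73064147 and chr1:90914850-90915099.
Myo5a: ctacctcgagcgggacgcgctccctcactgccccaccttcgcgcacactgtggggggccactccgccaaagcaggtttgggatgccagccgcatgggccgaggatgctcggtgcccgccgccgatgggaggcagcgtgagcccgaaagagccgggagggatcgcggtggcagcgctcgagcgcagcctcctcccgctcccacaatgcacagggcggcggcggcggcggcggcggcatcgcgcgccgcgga
Rab27a, outer start: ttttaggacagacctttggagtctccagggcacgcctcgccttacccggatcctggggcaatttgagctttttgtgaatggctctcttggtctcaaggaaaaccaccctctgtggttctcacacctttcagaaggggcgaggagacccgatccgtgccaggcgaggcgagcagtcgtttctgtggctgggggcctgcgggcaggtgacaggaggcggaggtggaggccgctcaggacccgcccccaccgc
Rab27a, inner start: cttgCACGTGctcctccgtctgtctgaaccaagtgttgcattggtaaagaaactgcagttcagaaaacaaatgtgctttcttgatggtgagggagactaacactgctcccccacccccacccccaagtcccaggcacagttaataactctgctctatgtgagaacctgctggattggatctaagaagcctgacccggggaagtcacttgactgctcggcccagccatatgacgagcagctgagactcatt
Mlph: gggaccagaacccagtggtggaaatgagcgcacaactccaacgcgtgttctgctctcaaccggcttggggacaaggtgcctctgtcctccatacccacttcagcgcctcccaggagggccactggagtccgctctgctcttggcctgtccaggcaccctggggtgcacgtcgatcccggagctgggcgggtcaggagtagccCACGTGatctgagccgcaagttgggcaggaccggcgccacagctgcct

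Myo5a and Rab27a, the motor and the melanosome GTPase of the tether, stood higher in every hairpin 2 library than in every other library, while Mlph, the linker between them, did not. Myo5a (ENSMUSG00000034593.16, protein coding, GRCm38 chromosome 9, 75071015 to 75223688, plus strand, no exon shared with another gene in GENCODE M21) measured 642, 783 and 611 CPM with hairpin 2. It measured 329, 446 and 457 CPM in the libraries labelled hairpin 1 and 413, 405 and 360.1 CPM in control. The 3 hairpin 2 libraries lay above the other 6, without overlap. Means were 679 ± 91.6 CPM with hairpin 2 and 393 ± 28.7 CPM in control (SD, n = 3 each), a log2 fold change of 0.79 (SE 0.14, 95% interval 0.47 to 1.11), or 1.73-fold. A higher fold change was seen in 5.35% of all tested genes. In bulk tissue, more melanoma cells in a tumour and more RNA per cell cannot be told apart.

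Rab27a (ENSMUSG00000032202.11, GRCm38 chromosome 9, 73044854 to 73097629, plus strand, with 3.84% of its exonic bases shared with Gm27186) measured 309, 350.2 and 314 CPM with hairpin 2. It measured 226, 267 and 255 CPM labelled hairpin 1 and 257, 244 and 204 CPM in control. Here too the hairpin 2 libraries lay above all 6 others, and those labelled hairpin 1 lay within or just above the control range. The fitted log2 fold change of hairpin 2 against control was 0.46 (SE 0.11, 95% interval 0.21 to 0.72), or 1.38-fold. Against the libraries labelled hairpin 1 it was 0.38 (SE 0.11), and that of Myo5a was 0.73 (SE 0.14). Without both libraries that stood apart these were 0.25 for Rab27a and 0.47 for Myo5a. These contrasts share the hairpin 2 libraries with the one that chose the genes and add no independent evidence. Of all tested genes, 10.6% had every hairpin 2 library above every control and 8.31% had every hairpin 2 library above all those labelled hairpin 1.

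Mlph (ENSMUSG00000026303.6, GRCm38 chromosome 1, 90915085 to 90951142, plus strand) measured 394, 255 and 502 CPM with hairpin 2, 345, 369 and 359.6 CPM labelled hairpin 1, and 470.0, 409 and 371 CPM in control. Among the hairpin 2 libraries it ran from the lowest to the highest of all 9 values, with a coefficient of variation of 32.3%, against 3.39% labelled hairpin 1 and 12.0% in control. Its log2 fold change of hairpin 2 against control was -0.12 (SE 0.21, 95% interval -0.58 to 0.34). Without hairpin 2 replicate 2 it was 0.09, and without hairpin 2 replicate 3 it was -0.36, so its direction rests on single libraries. Replicate 2 of hairpin 2, the library with the lowest Mlph and the highest Myo5a, also had the lowest leukocyte sum (50.7 CPM), the lowest melanocyte lineage sum (24170 CPM) and the highest erythroid sum (21462 CPM), and the part of these in its values was not tested. Single lineage markers went both ways there, with Tyr at its highest of the 9 libraries (827 CPM) and Gpnmb at its lowest (2173 CPM).

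**Figure D1:**
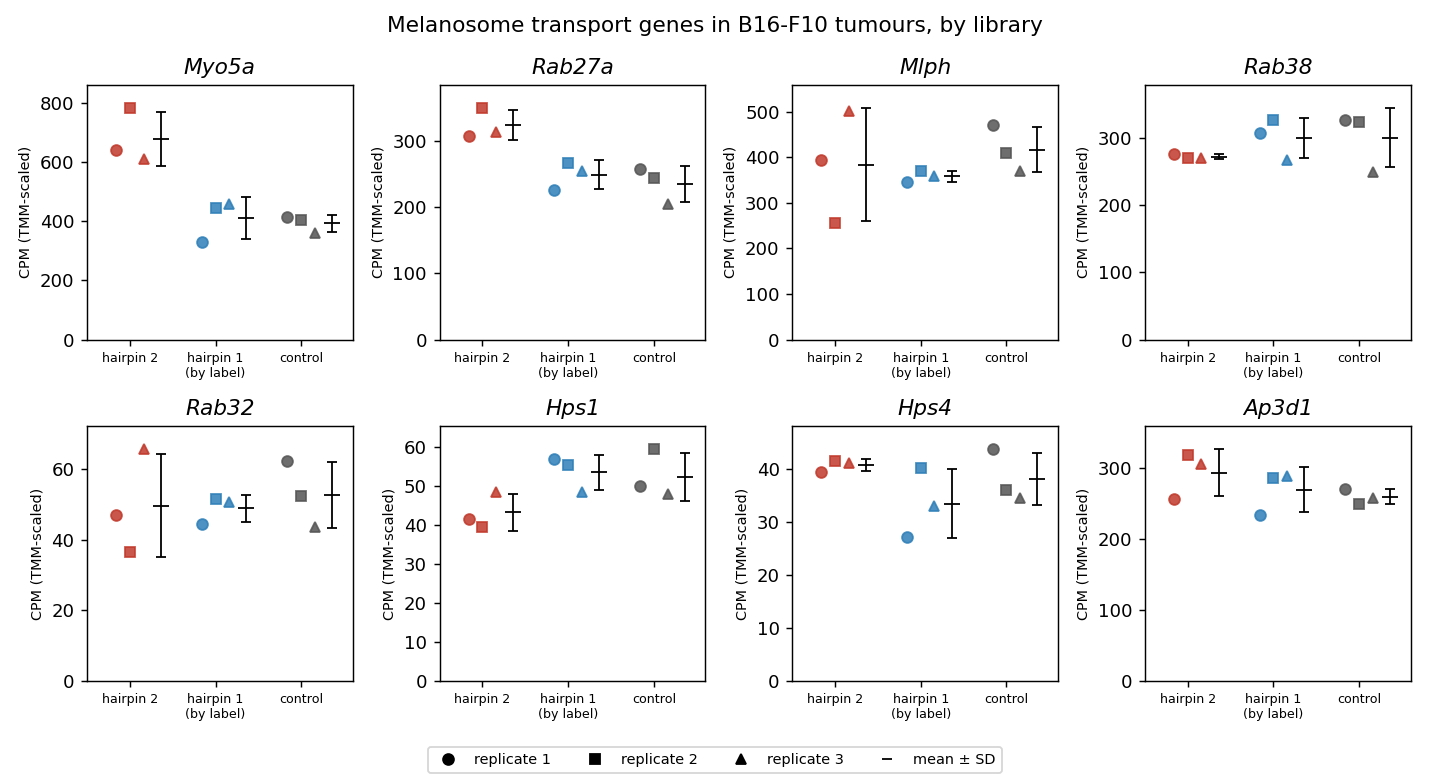
CPM of the 8 filtered-in genes in each library, by group, with the mean and SD of 3 libraries as a bar. For Myo5a and Rab27a the 3 hairpin 2 points lie above all 6 other points (611 to 783 CPM and 309 to 350.2 CPM), while the hairpin 2 and control points of the other genes overlap.

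Transcript length moved with the hairpin 2 contrast, and Myo5a is among the longest transcripts. Its longest annotated transcript has 11702 bases, and 1.19% of tested genes have a longer one. Rab27a, at 3168 bases, is close to the median of tested genes, 3205 bases. Across 14109 genes, which are not independent replicates, the rank correlation of log2 fold change with transcript length was 0.37 for hairpin 2 against control and -0.02 for the libraries labelled hairpin 1. Fold changes in the longest decile of genes had a median of 0.32, and those in the decile around 3472 bases one of -0.001. With each library's trend in length and GC content removed, Myo5a stood at 535, 606 and 580.2 CPM with hairpin 2, 402, 479 and 439 CPM labelled hairpin 1, and 409, 477 and 399.8 CPM in control.

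After that step the Myo5a fold change was 0.42 (SE 0.10), against 0.79 before it. Rab27a moved little, to 0.49 (SE 0.12), with 303, 362 and 316 CPM in hairpin 2 libraries and 253, 242 and 201 CPM in control. Every hairpin 2 library still lay above the 6 others for Myo5a and Rab27a. Of the 14109 genes with a known length, 7.86% lay wholly above control and 5.46% wholly above the libraries labelled hairpin 1. The share above all 6 at once is not given here. After the trend was removed, hairpin 2 also lay wholly below control for Hps1, as it did for 1119 of the 14109 genes. It lay wholly above the libraries labelled hairpin 1 for Hps4, as it did for the 5.46% given above. The trend in the single libraries, as the rank correlation of a gene's deviation with its length, was 0.33, 0.32 and 0.11 with hairpin 2, -0.31, -0.09 and 0.02 labelled hairpin 1, and -0.01, -0.23 and -0.20 in control. Whether RNA quality or library preparation set these trends was not tested.

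**Figure D2:**
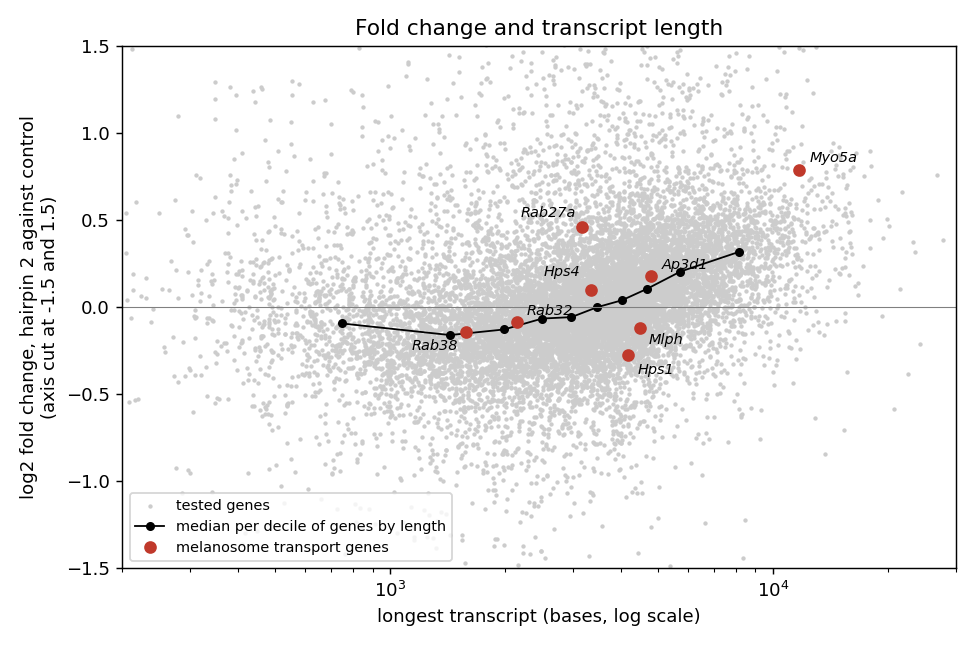
Log2 fold change of hairpin 2 against control for 14109 tested genes (grey) by longest transcript length on a log axis, with the median per decile of genes (black) and the 8 melanosome transport genes (red); genes beyond the axis limits are not drawn. Myo5a, at 11702 bases, lies at 0.79 where the longest decile has a median of 0.32, and Rab27a lies at 0.46 at the length of the median gene.

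**Figure D3:**
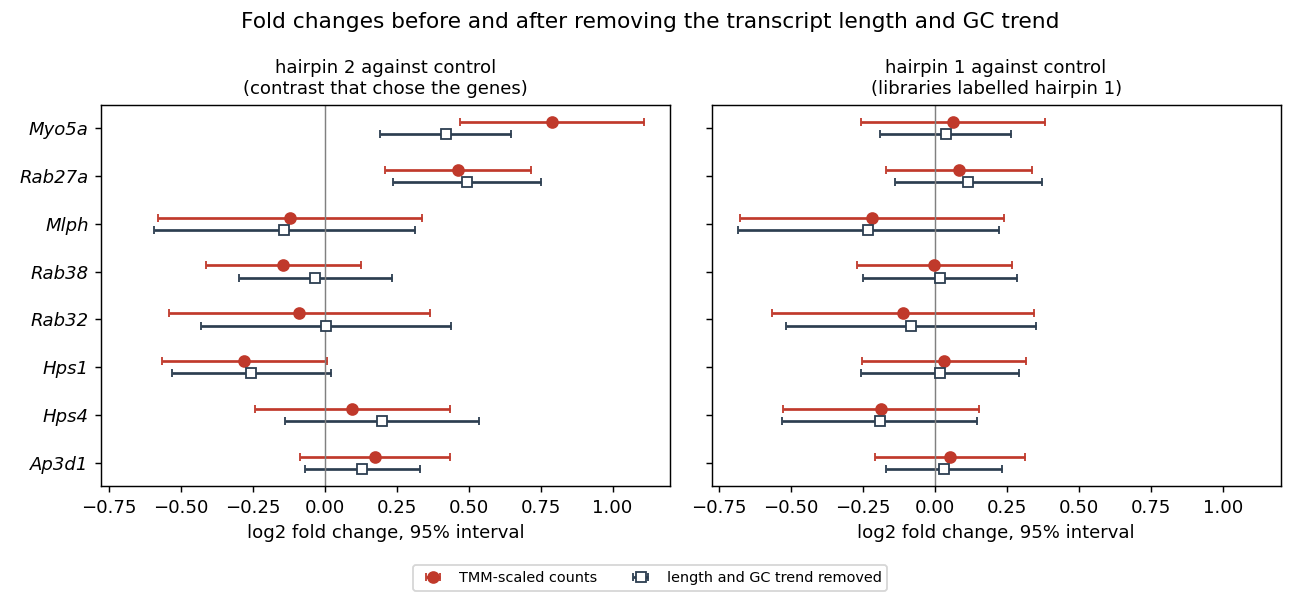
Log2 fold changes with 95% intervals for hairpin 2 against control (left) and for the libraries labelled hairpin 1 against control (right), from scaled counts (filled circles) and with the length and GC trend removed (open squares). With the trend removed Myo5a lies at 0.42 and Rab27a at 0.49, and all 8 genes labelled hairpin 1 have intervals that span 0.

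Ratios of counts within a library need no scaling between libraries, but still carry each library's length trend. Myo5a over Rab27a was 2.08, 2.24 and 1.94 with hairpin 2, 1.46, 1.67 and 1.79 labelled hairpin 1, and 1.61, 1.66 and 1.76 in control. With the length and GC trend removed, Myo5a over Rab27a was 1.77, 1.67 and 1.84 with hairpin 2, 1.77, 1.78 and 1.70 labelled hairpin 1, and 1.62, 1.97 and 1.99 in control, so the groups overlapped and the difference of hairpin 2 from control turned to -0.07 on the log2 scale. Myo5a over Mlph was 1.63, 3.07 and 1.22 with hairpin 2, 0.952, 1.21 and 1.27 labelled hairpin 1, and 0.879, 0.9896 and 0.971 in control. Rab27a over Mlph was 0.784, 1.37 and 0.626 with hairpin 2, 0.653, 0.724 and 0.709 labelled hairpin 1, and 0.547, 0.597 and 0.551 in control. Rab27a over Mlph lay above every control in each library with hairpin 2 and in each labelled hairpin 1. It also did so with the trend removed (0.651 to 1.45 with hairpin 2, 0.634 to 0.743 labelled hairpin 1 and 0.532 to 0.581 in control). Rab27a was chosen for its higher level with hairpin 2, so the hairpin 2 part of this adds no independent evidence. With the trend removed, Myo5a over Mlph was 1.19 to 2.44 with hairpin 2, 1.12 to 1.32 labelled hairpin 1 and 0.880 to 1.15 in control. Of the 3 ratios, tested labelled hairpin 1 against control, Rab27a over Mlph differed by 0.30 on the log2 scale with an exact two-sided permutation p of 0.1, the smallest that 3 against 3 libraries allow, and 0.3 after adjustment over the 3 ratios. The exact p was 0.3 for Myo5a over Mlph and 0.9 for Myo5a over Rab27a (0.45 and 0.9 adjusted). With the trend removed the 3 exact p were 0.1, 0.2 and 0.4 in the same order (0.3, 0.3 and 0.4 adjusted). The ratios, and removing the trend from them, were chosen after the data were seen. The tested contrast shares the control libraries with the one that chose Myo5a and Rab27a. How many other gene pairs differ as much was not examined.

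**Figure D4:**
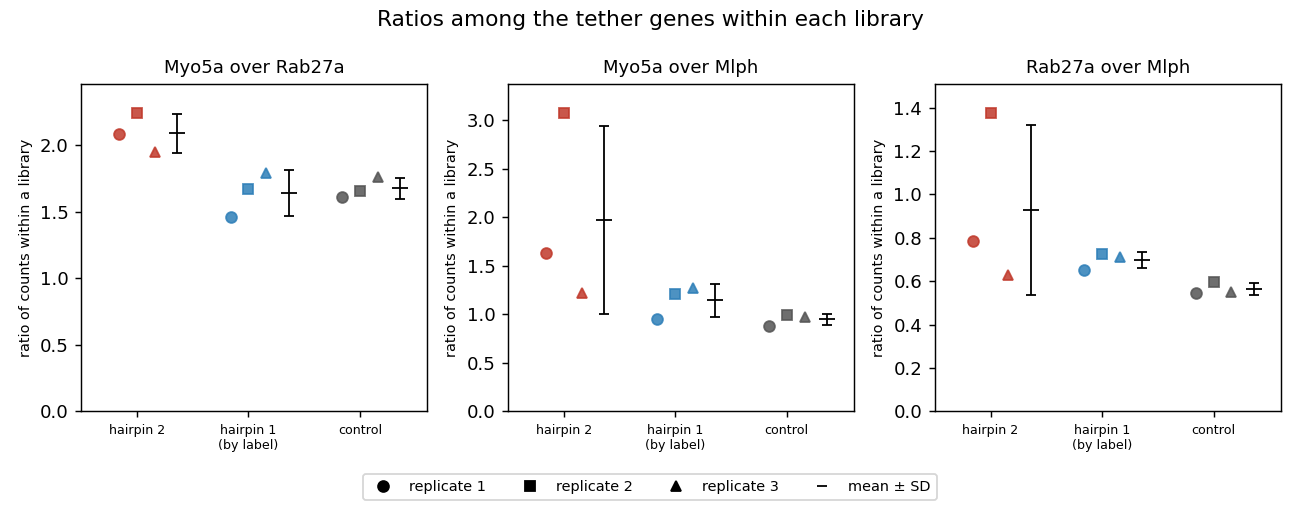
Ratios of counts among the tether genes within each library, with the mean and SD of 3 libraries per group. Myo5a over Rab27a lies at 1.94 to 2.24 with hairpin 2 and at 1.61 to 1.76 in control; with the length and GC trend removed, which is not drawn, it lies at 1.67 to 1.84 with hairpin 2 and at 1.62 to 1.99 in control, which overlap. Myo5a over Mlph reaches 3.07 in hairpin 2 replicate 2.

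The cargo GTPases did not follow Myo5a. Rab38 (ENSMUSG00000030559.8, GRCm38 chromosome 7, 88430273 to 88491572, plus strand), mutated in the chocolate mouse, measured 277, 270.3 and 269 CPM with hairpin 2. It measured 307, 326 and 267 CPM labelled hairpin 1 and 327, 324 and 249.7 CPM in control. The hairpin 2 libraries lay inside the control range, with a coefficient of variation of 1.46%. Its log2 fold change was -0.14 (SE 0.12), and -0.03 (SE 0.12) with the length and GC trend removed.

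Rab32 (ENSMUSG00000019832.5, GRCm38 chromosome 10, 10545002 to 10558265, minus strand), which shares Rab38's role, measured 46.9, 36.6 and 65.6 CPM with hairpin 2, 44.4, 51.5 and 50.8 CPM labelled hairpin 1, and 62.3, 52.5 and 43.5 CPM in control. Hairpin 2 libraries again spanned the whole range of the 9, lowest in replicate 2 and highest in replicate 3, the same order as for Mlph. Against control, Rab32 differed by -0.09 on the log2 scale (SE 0.20, 95% interval -0.54 to 0.37). Its sign turned with the length and GC trend removed (0.0034), without hairpin 2 replicate 2 (0.08), without control replicate 1 (0.05) and without both libraries that stood apart (0.07). Counts of Rab38 were 4.10 to 7.39 times those of Rab32 with hairpin 2, 5.27 to 6.90 times labelled hairpin 1 and 5.25 to 6.18 times in control.

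The BLOC-3 subunits had opposite signs with hairpin 2 against control, each with a 95% interval that spans 0. Hps1 (ENSMUSG00000025188.15, GRCm38 chromosome 19, 42755105 to 42779978, minus strand, 4.12% of exonic bases shared with Gm16244) measured 41.5, 39.4 and 48.5 CPM with hairpin 2, 56.8, 55.2 and 48.4 CPM labelled hairpin 1, and 49.9, 59.3 and 47.8 CPM in control. Replicates 1 and 2 of hairpin 2 were the lowest of all, and replicate 3 lay inside the control range. Against control, Hps1 differed by -0.28 on the log2 scale (SE 0.13, 95% interval -0.56 to 0.01). Hps4 (ENSMUSG00000042328.13, GRCm38 chromosome 5, 112343083 to 112378414, plus strand, 3.37% of exonic bases shared with Gm20636) measured 39.6, 41.7 and 41.2 CPM with hairpin 2, 27.2, 40.2 and 33.1 CPM labelled hairpin 1, and 43.8, 36.1 and 34.6 CPM in control. Its log2 fold change was 0.10 (SE 0.15), within the control spread. Hps1 over Hps4 was 1.06 ± 0.116 with hairpin 2, 1.64 ± 0.390 labelled hairpin 1 and 1.39 ± 0.252 in control (SD, n = 3 each). Single libraries of hairpin 2 (0.946 to 1.18) and control (1.14 to 1.64) overlapped.

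Ap3d1 (ENSMUSG00000020198.8, GRCm38 chromosome 10, 80706956 to 80742264, minus strand), the delta subunit of the AP-3 adaptor and the gene lost in the mocha mouse, measured 256, 319.5 and 306 CPM with hairpin 2, 234, 287 and 289 CPM labelled hairpin 1, and 271, 249.96 and 259 CPM in control. Replicates 2 and 3 of hairpin 2 exceeded the controls and replicate 1 did not. Its log2 fold change was 0.18 (SE 0.12, 95% interval -0.08 to 0.44). Bloc1s1 (ENSMUSG00000090247.7), a subunit of BLOC-1, had 8, 3 and 0 counts with hairpin 2, 2, 1 and 6 labelled hairpin 1, and 4, 6 and 2 in control. With 55.9% of its exonic bases shared with Rdh5 on the same strand (GRCm38 chromosome 10, 128917882 to 128924035), reads of the 2 genes may not have been told apart, and no difference was detectable at this depth. Rdh5 itself stood at 2.92 to 3.78 CPM with hairpin 2 and 2.09 to 4.38 CPM in control.

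The libraries labelled hairpin 1 were not used to choose the genes, but their contrast shares the control libraries with the one that was. None of the 8 genes passed edgeR's quasi-likelihood test there (adjusted p = 0.9999 for each), 0 had an unadjusted p under 0.05, and DESeq2 and limma-voom called 0. Of all 14193 tested genes, 0% passed the adjusted threshold of 0.05, and 3.17% had an unadjusted p under 0.05 by edgeR. Myo5a had a log2 fold change of 0.06 (SE 0.14, 95% interval -0.26 to 0.38) and Rab27a one of 0.08 (SE 0.11, 95% interval -0.17 to 0.34). Mlph differed most, by -0.22 (SE 0.21, 95% interval -0.68 to 0.24), with all 3 libraries below all 3 controls, which 4.3% of tested genes shared. The other 5 ranged from -0.19 for Hps4 to 0.05 for Ap3d1. The median over the 8 was 0.01, as over all tested genes.

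Levels between genes can be set side by side per length of the longest transcript. In control libraries Rab38 was highest at 190 ± 27.8 CPM per kilobase (SD, n = 3), followed by Mlph at 92.6 ± 11.1, Rab27a at 74.3 ± 8.70, Ap3d1 at 54.1 ± 2.24, Myo5a at 33.6 ± 2.45 and Rab32 at 24.6 ± 4.37 CPM per kilobase. Hps1 at 12.5 ± 1.47 and Hps4 at 11.4 ± 1.48 CPM per kilobase closed the order and did not differ beyond their spread. Mlph was higher per kilobase than Rab27a in every control library, although their ranges of mean and SD overlapped. With hairpin 2, Rab38 stood at 173 ± 2.52, Rab27a at 102 ± 7.11, Mlph at 85.3 ± 27.5, Ap3d1 at 61.2 ± 6.89 and Myo5a at 58.0 ± 7.83 CPM per kilobase. Rab27a and Mlph were in the opposite order to control there, within the spread of Mlph, and Ap3d1 and Myo5a did not differ beyond their spread. These levels still carry each library's length and GC trend. With it removed, mean levels with hairpin 2 went from 679 to 574 CPM for Myo5a and from 294 to 289 CPM for Ap3d1. The order per kilobase with the trend removed was not examined.

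Other genes of the pathway were taken from a list of 57 by role, of which 49 were tested. Against control, 30 of the 49 had a positive log2 fold change with hairpin 2 and 19 a negative one, with a median of 0.07 against 0.01 over all tested genes. Of all tested genes, 51.5% were higher with hairpin 2, and 63.3% when library sizes were set by the melanocyte lineage markers. None of the 49 passed edgeR's adjusted threshold and limma-voom called 0. DESeq2 called 2, Lyst and Fmn1, beside 280 of all tested genes, with no length trend removed. At an unadjusted p under 0.05 by edgeR there were 10 of 49 (20.4%), 8 higher and 2 lower, beside 14.4% of all tested genes, 8.14% higher and 6.27% lower. With the length and GC trend removed there were 2 of the 48 with a known length, Mreg and Stx12, beside 9.63% of all genes with one. With single libraries left out, the 10 became 5 to 14, with 5 without hairpin 2 replicate 2 and 6 without control replicate 3. Without both libraries that stood apart there were 5. Labelled hairpin 1, 0 of 49 had an unadjusted p under 0.05 against control.

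By size of change, Lyst led the list. Lyst, which controls the size of lysosomes and melanosomes and is lost in the beige mouse, measured 125, 149 and 118 CPM with hairpin 2, against 85.5, 88.9 and 65.7 CPM in control (log2 fold change 0.71, SE 0.18; edgeR adjusted p = 0.241). Its longest transcript has 13181 bases, and its fold change was 0.32 with the length trend removed. Fmn1, a formin that assembles actin filaments, measured 157, 175 and 161 CPM with hairpin 2 and 127, 120.5 and 102 CPM in control (0.49, SE 0.14, edgeR adjusted p = 0.241). With the trend removed 0.13 was left of its log2 fold change, and it overlapped control. Myo7a, a myosin of pigment and hair cells, differed by 0.22 (SE 0.15), and by 0.06 (SE 0.13) with the trend removed. Mreg, whose loss suppresses the dilute coat in mice, differed by 0.24 (SE 0.11), and by 0.34 with the trend removed; it was named after its value was seen.

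Among the microtubule motors, Dync1h1, the dynein heavy chain, averaged 1017 ± 91.3 CPM with hairpin 2 and 802 ± 92.8 CPM in control (SD, n = 3 each), a log2 fold change of 0.34 (SE 0.12, edgeR adjusted p = 0.267). With the trend removed it was 0.05, and Dync1h1 overlapped control. Dctn1, of its cofactor dynactin, differed by 0.05 (SE 0.12). Kif13a, the kinesin that works with AP-1 in melanosome cargo transport, and Kif5b, a kinesin-1 heavy chain, differed by 0.40 (SE 0.13) and 0.35 (SE 0.11), and by 0.20 (SE 0.12) and 0.10 (SE 0.11) with the trend removed, when each overlapped control. Those 2 were named after their values were seen. Of the membrane fusion proteins, the SNARE genes Stx12 and Snap23 differed by 0.22 (SE 0.10) and 0.06 (SE 0.13). Vamp7, a SNARE of melanosome cargo delivery also named after its value was seen, differed by 0.35 (SE 0.12). It has no transcript length in the annotation used, so no trend could be removed for it.

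BLOC-1 subunits had negative values. All 7 tested subunits had a negative log2 fold change with hairpin 2 against control, from -0.34 to -0.15 with a median of -0.22, and 48.5% of all tested genes were negative. An unadjusted p under 0.05 was found for 1 of the 7 (14.3%), beside 14.4% of all tested genes. Dtnbp1, encoding dysbindin, averaged 119 ± 12.96 CPM with hairpin 2 and 145 ± 2.91 CPM in control (SD, n = 3 each; log2 fold change -0.28, SE 0.10; edgeR adjusted p = 0.2697), and differed by -0.09 (SE 0.10) with the trend removed, when it overlapped control. Snapin stood at -0.22 (SE 0.16). All 7 were negative with the length and GC trend removed, with a median of -0.13, under the other 4 library scalings tried, and without any 1 library or both that stood apart. Labelled hairpin 1 the same 7 had a median of -0.03, 3 of them positive.

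The remaining roles had mixed signs with hairpin 2. Hps3 and Hps5 of BLOC-2 differed by 0.35 (SE 0.14) and 0.07 (SE 0.16), and the AP-3 subunit genes Ap3b1 and Ap3s2 by 0.20 (SE 0.13) and -0.003 (SE 0.12). With the trend removed Ap3s2 was at -0.17 (SE 0.10), wholly below control, as were 1119 of 14109 genes, and Hps5 was at -0.05 (SE 0.13). Ap3b1 lay wholly above control before that step and after it (0.15, SE 0.12), as did 10.6% and 7.86% of genes. The AP-1 subunit genes Ap1b1 and Ap1s1 differed by -0.12 (SE 0.11) and -0.26 (SE 0.11). Once the trend was removed, Ap1b1 was at -0.11 (SE 0.09), also wholly below control, and Ap1s1 at -0.06 (SE 0.10), overlapping it. Vps39 and Vps33a of the HOPS tethering complex differed by 0.06 (SE 0.11) and 0.13 (SE 0.12). Ankrd27, an effector of Rab32 and Rab38, differed by -0.01 (SE 0.13), and Sgsm2, a GTPase-activating protein of Rab32, by -0.03 (SE 0.13). Rabggtb, which helps attach the lipid anchor to Rab proteins, and Tbc1d10a, a GTPase-activating protein of Rab27a, differed by 0.02 (SE 0.13) and 0.06 (SE 0.15), and by 0.10 (SE 0.11) and 0.26 (SE 0.14) with the trend removed. None of these passed edgeR's adjusted threshold.

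**Figure D5:**
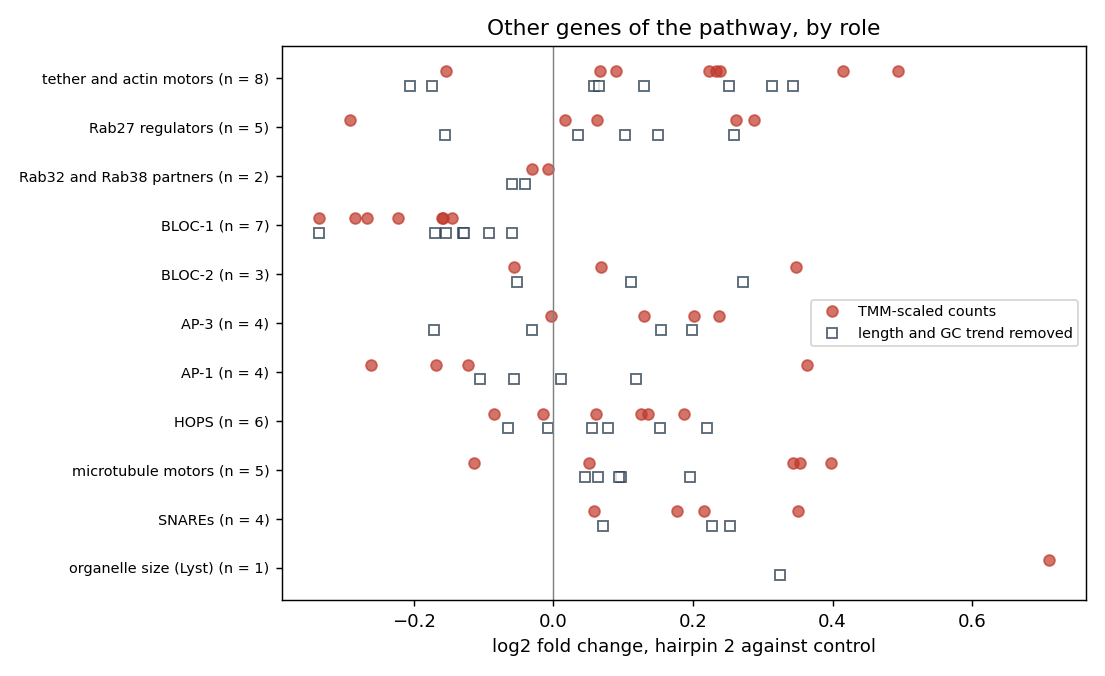
Log2 fold change of hairpin 2 against control for the 49 tested pathway genes by role, from scaled counts (filled circles) and with the length and GC trend removed (open squares, 48 genes with a known length). The 7 BLOC-1 genes all lie below 0 in each, and Lyst lies at 0.71, and at 0.32 with the trend removed.

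The patterns most like that of Myo5a over the 9 libraries were those of Usp9x (Pearson r of log2 CPM 0.984), Avl9 (0.976), Senp6 (0.976), Rmnd5a (0.972) and Fmn1 (0.971). Their longest transcripts have 5111 to 11887 bases, all above the median of 3205 bases. Rab27a ranked 25 among the genes nearest to Myo5a (r = 0.959, and 0.837 around the group means). Nearest to Rab27a were Atp2c1 (0.987), Cltc (0.981), Sirpa (0.975), Fmn1 (0.973) and Lyst (0.972), with Myo5a at rank 9. From Atp2c1 to Lyst, their longest transcripts have 3982 to 13181 bases, also all above that median, while that of Rab27a itself has 3168. Mlph had an r of -0.25 with Myo5a and -0.18 with Rab27a. These are descriptions over 9 libraries that share group, library scaling and the length trend.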

How the data were processed

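Bulk RNA-seq of 9 libraries from B16-F10 tumours was analysed. The authors deposited one table per library with unnormalized whole-number counts per gene symbol. Per the submitters' processing notes, the tools were STAR (2.7.0d) and Cufflinks; the builds named there are human (GRCh38, hg38), yet the symbols are mouse. No source used here gives the counter, annotation or strand setting, so overlapping genes cannot be told apart. Genes were kept with filterByExpr (at least 10 counts, total 15), scaled by TMM and tested in edgeR 4.0.16 (R 4.3.3) with its quasi-likelihood F-test, robust option, on 9 libraries in 3 groups taken from the titles. P-values were adjusted by Benjamini-Hochberg over 14193 genes, with a threshold of 0.05; library totals were 15322163 to 17342554. SE is the log2 fold change over the root of F. Positions, overlaps, lengths and GC came from GENCODE M21 (GRCm38). Each library's trend in length and GC was fitted with natural splines (4 degrees of freedom each) on log2 CPM (prior count 2) and entered as an offset; genes without a length have no such value. Ratios with the trend removed were added after seeing the data. No library was taken for a repeat deposit: chi-square divided by its degrees of freedom was 19.1 to 65.9 within groups, and 9.87 to 109.7 between groups, lowest for control replicate 1 with replicate 3 labelled hairpin 1; 3 pairs between groups (9.87, 16.5 and 18.2) were closer than any within a group. Alternatives were other scalings and filters, DESeq2 1.42.0, limma-voom (limma 3.58.1), a replicate block, and left-out libraries. Fits were tested on simulated counts. The genes named are all members, up to 2 pathway genes of highest mean CPM per role and the 5 most similar genes; Mreg, Kif13a, Kif5b and Vamp7 fall outside this rule and were named after their values were seen. Members and lists were chosen with earlier results of these data known. Of 57 pathway symbols, 56 were found; Rab9a was not analysed.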

Additional observations from a re-analysis of the deposited data

How the results depend on the processing

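Hairpin 2 against control, the fold changes of Myo5a (0.42 to 0.91) and Rab27a (0.37 to 0.57) kept their sign under all 23 alternatives. Both genes were chosen for that direction, so the kept sign adds no independent evidence. Relative to the lineage marker sum, hairpin 2 did not stand above all other libraries for Rab27a. Hairpin 2 replicate 3 (314 per 34193 CPM) lay below control replicate 1 (257 per 26938 CPM) and replicate 3 labelled hairpin 1 (255 per 26916 CPM). Same-numbered libraries did not pair (r of deviations -0.41 to 0.14); with the replicate block Myo5a was 0.78 and Rab27a 0.46, and the block changed no call. DESeq2 called 280 genes in all and 2 pathway genes for hairpin 2 against control, and 89 and 1 for hairpin 2 against the libraries labelled hairpin 1; without a filter edgeR called 4 and 2 in all. The median over the 8 genes was -0.084 to 0.13 against control with single libraries left out, and -0.019 to 0.23 against those labelled hairpin 1. The causes of these changes were not tested. For hairpin 2 against control, the 95% intervals of the filtered-in members spanned 0 except for Myo5a and Rab27a, the genes that set the choice. With 3 libraries per group, differences as small as those of the other members could not be told from 0.

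Signs near 0 turned. With lineage marker scaling Ankrd27 was 0.088, Ap3s2 0.090 and Sgsm2 0.045, and with upper quartile factors Rabggtb was -0.015. Without both libraries that stood apart Ankrd27 was 0.00297, Dctn1 -0.048, Sgsm2 0.021 and Vps39 -0.015. With the trend removed Hps5 was -0.051 and Vps39 -0.0079 (-0.051 and -0.00316 with the block too), and the log2 ratio of Myo5a over Rab27a, hairpin 2 against control, was -0.074 against 0.32 as counted, an alternative chosen after seeing the data. Labelled hairpin 1, Rab38 was 0.0049 with upper quartile factors, 0.00464 with limma-voom, 0.00253 with the replicate block and 0.017 with the trend removed (0.022 with the block too), and Hps1 was -0.030 without both libraries. Leaving out single libraries gave, labelled hairpin 1 against control, Fbxo38 -0.39 to 0.026, Myo5a -0.023 to 0.19, Rab27a -0.010 to 0.15, Rab38 -0.12 to 0.072, Rab32 -0.23 to 0.024, Hps1 -0.032 to 0.12 and Ap3d1 -0.00080 to 0.13. For hairpin 2 against control it gave Rab32 -0.34 to 0.079 (0.073 without both libraries that stood apart), Mlph -0.36 to 0.092, Ankrd27 -0.13 to 0.079, Ap3s2 -0.054 to 0.064, Dctn1 -0.041 to 0.14, Hps5 -0.020 to 0.20, Rabggtb -0.060 to 0.086, Sgsm2 -0.14 to 0.084, Tbc1d10a -0.076 to 0.13 and Vps39 -0.0084 to 0.12.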

Other observations

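Rab27a and Myo5a lie 1.97 megabases apart on chromosome 9 (GRCm38), and 4 tested genes lie between them. With hairpin 2 against control, Fam214a differed by 0.48 on the log2 scale (SE 0.28), Gm2981 by 0.23 (SE 0.38), Arpp19, a phosphatase inhibitor of mitosis, by 0.12 (SE 0.10) and Rsl24d1, a ribosome biogenesis factor, by -0.27 (SE 0.13). All 3 hairpin 2 libraries lay above control for Fam214a (mean 6.81 CPM over all libraries) and below it for Rsl24d1. Of all tested genes, 10.6% lay wholly above control in this way and 10.2% wholly below. With the length and GC trend removed, Fam214a was at 0.41, Gm2981 at 0.32, Arpp19 at 0.01 and Rsl24d1 at -0.17. None of the 4 had an unadjusted p under 0.05 in edgeR, and none passed after adjustment. Labelled hairpin 1, all 4 had negative fold changes against control, from -0.23 to -0.04. Rsl24d1 lay wholly below control there too, as did 4.3% of all tested genes.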
